A study of Schizosaccharomyces pombe with 18 samples.

Results

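The mug and meu genes of fission yeast (Schizosaccharomyces pombe) were followed across vegetative cultures of wild type and 5 other strains. Each of the 5 is labelled as deleted for 1 subunit of SHREC, a nuclear complex that silences chromatin. Members were all rows of the deposited table whose systematic ID carries a standard name made of mug or meu and a number, except rows whose midpoint lies within 100 kb of a chromosome end. This gave 111 of 7018 rows, for 110 genes, since meu1 has 2 rows. By name, 89 rows were mug and 22 were meu, and by biotype 108 were protein coding and 3 non-coding (meu11, meu16 and meu20). They lie on chromosomes 1 (56 rows), 2 (31) and 3 (24).

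The names stand for meiotically upregulated and meiotic expression upregulated genes, which were collected because their RNA rises when starved cells conjugate, undergo meiosis and form spores. The group is defined by timing and not by function, and holds RNA-binding proteins, proteins of meiotic chromosomes, enzymes and transporters, components of the forespore membrane and spore wall, and many proteins without a known role. In growing cells meiotic RNA is kept low in several ways: the inducing transcription factors, such as the forkhead factor Mei4, are scarce, and the RNA-binding protein Mmi1 marks a set of meiotic transcripts for decay. SHREC acts mainly on heterochromatin, where Clr3 deacetylates histones, Mit1 remodels nucleosomes, Chp2 is an HP1 protein that binds methylated histone H3, and Clr1 and Clr2 are further subunits.

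RNA of 18 cultures was sequenced, with 3 biological replicates for each of 6 genotypes, grown in YES medium at 25 °C. All strains are labelled h- and carry leu1-32 and ura4-D18. The wild type adds ade6-210, arg3-D4 and his3-D1, as do mit1D (mit1D::Natmx6) and chp2D (chp2D::KanR). The strains clr1D (clr1D::KanMX4, ade6-210/216?), clr2D (clr2D::his7+, ade6-216) and clr3D (clr3D::kanMX6, ade6-210) list arg3D and his3D instead, so these alleles and the deletion cannot be told apart in their comparisons with wild type. The mit1D and chp2D libraries bear another style of library name than the rest, and for those deletions the library series and the deletion cannot be told apart. Levels are FPKM, fragments scaled by transcript length and library depth, as deposited by the authors and here divided by a scaling factor per library, and n = 3 in every group.

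Recovered depth was 26.2 to 101.8 M reads per library, lowest in chp2D (26.2 to 32.9 M) and highest in wild type (46.5 to 101.8 M). The deleted gene was lower in its own 3 libraries than in any other library for all 5 deletions. The levels of clr1, clr3, mit1 and chp2 there were 2.22 to 2.6, 3.89 to 5.65, 0.00774 to 0.0243 and 3.81 to 4.24, against 12.3 or more in wild type. The row of clr2 was still at 14.7 to 15.4 in clr2D, against 19.4 to 20.3 in wild type. The clr2D results below are those of a strain with that label, and whether it lacks all Clr2 was not tested. Of the mating-type markers, mat1-Mc was listed at a mean of 0 in wild type and at 0.01 or less in every deletion, and the reason was not tested. The other M-cell genes ranged in wild type from 6.67 (mfm1) to 98.5 (mfm2), with mam2 at 19.9. The P-cell genes ranged from 3.42 (map1) to 212 (sxa1), with map3 at 21.6. Genes of both mating types were thus detected in cultures labelled h-.

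Of 4 known sites searched for, GTAAACA, the core of the site bound by Mei4, was the most frequent before members. Within 250 bases before the start of the gene, on either strand, it stood before 46 of 107 coding members (43.0%) and before 754 of 5103 coding genes (14.8%). A match is a description of these letters and not a site shown to be bound. There was no copy before mug14, mug10, mug147, meu10, mug115, meu15, meu27 and mug8, which lead several of the results below. Some members that do hold the core are shown with 10 bases on each side of 1 copy. Every copy in the stretch is in capitals, read 5′ to 3′ on the strand named, from RefSeq assembly ASM294v3.
mug73, transporter, chr3:624682-624708, plus strand: agccatgtttGTAAACAaacaaacttc
mug103, protein of no annotated function, chr1:1160071-1160097, plus strand: tacttataatGTAAACAaacattagcg
mug133, no annotated function, chr1:2263475-2263501, plus strand: tcctattttaGTAAACAtttcctaata
meu31, no annotated function, chr1:1083483-1083509, plus strand: taattaaaatGTAAACAaatttccatc
meu6, pleckstrin homology protein, chr2:454090-454116, minus strand: tggcgagaatGTAAACAaacaaatcga
mug27, protein kinase, chr3:1679593-1679619, plus strand: cccagcaaatGTAAACAaacaccgggt
mug28, RNA-binding protein, chr1:1650951-1650977, minus strand: aattctcaatGTAAACAaaaGTAAACA
mug20, protein of meiotic chromosomes, chr2:2393137-2393163, minus strand: ctagcttgatGTAAACAaaagacgcgt
meu14, forespore membrane protein, chr2:4066227-4066253, minus strand: agatttgcctGTAAACAgaagcacaat

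The 250 bases before mug73 and meu14 held 3 copies of the core, and those before mug133, mug28 and mug20 held 2. In mug73, mug103, meu6 and mug27 the core ran on into GTAAACAAACA. This longer form, the core with the 4 bases that most often follow it before members, was picked after the sequences had been seen. It stood before 14 of 107 coding members (13.1%) and 59 of 5103 coding genes (1.16%). Of 89 genes that have a mug or meu name only as a synonym and whose promoters were read, 34 (38.2%) held GTAAACA. Other motifs were rare. ACGCGT, the MCB element, stood before 5 members (4.67%, against 2.65% of all coding genes), TGACGT, an Atf1 site, before 4 (3.74%, against 5.53%), and TTCTTTGTT, the core of the Ste11 site, before 1 (0.935%, against 1.63%).

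Mmi1 recognises the hexamer TNAAAC, with U for T in RNA, in the transcripts it marks. It was counted on the coding strand of each coding sequence, where members had a median of 1.78 copies per kb and all coding genes 1.52. The most copies were in mug45 (17 in 2460 coding bases) and mug8 (13 in 2163), and the most per kb in mug37 (9.17), meu13 (7.68), meu43 (7.41) and mug178 (7.37). A stretch of mug45 and of mug8 is shown with the hexamers in capitals, to let the spacing of copies be seen. Copy number and calls were not tested against each other. In clr1D mug45 and mug8 were called lower, while mug62 (12 copies), mug4 (10) and mug28 (9) were not called. There mug37, meu13, meu43 and mug178 were not called either. In mit1D mug62 was called higher (log2 fold change 0.24), mug8 (-0.29) and mug178 (-0.10) were called lower, and mug45 was not called.
mug45, coding bases 264 to 293: ctcccaaaacgtcgagTTAAACcaTAAAAC
mug8, coding bases 1385 to 1414: tccgtagatcttTTAAACgtatttTAAAAC

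In wild type the members were detected at low levels. Their median was 13.5 scaled FPKM (range 0.315 to 277), against 29.1 over all rows and 36.4 over protein-coding rows. Of the 111 rows, 3 had a mean under 1, 38 between 1 and 10, 65 between 10 and 50, and 5 at 50 or more, and no member was at 0 in any library. The highest were mug64 (277 ± 8.73, SD), annotated as a BAR-domain protein, mug106 (230 ± 11.6) and mug37 (120). The lowest were mug116 (0.315), mug96 (0.457) and meu15 (0.971 ± 0.222). The median over members stayed between 12.2 and 14.1 in all 18 libraries. These are bulk cultures, in which a low level in many cells and a high level in few cannot be told apart, nor can fewer cells of a type and less RNA per cell.

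**Figure D1:**
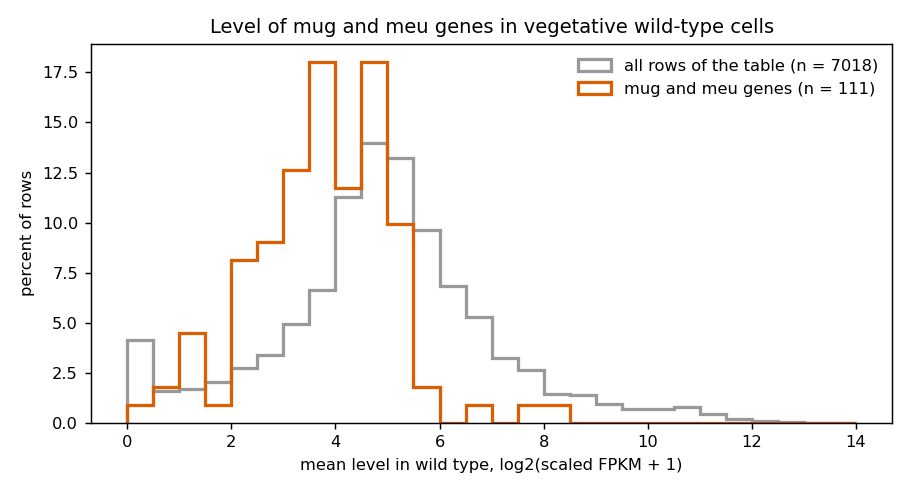
Distribution of mean wild-type levels, as log2 of scaled FPKM plus 1, for the 111 mug and meu rows (orange) and all 7018 rows of the table (grey); the y axis is the percent of rows per bin. The members lie to the left of the table as a whole, with medians of 13.5 and 29.1 scaled FPKM.

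Each deletion was compared with wild type by limma on log2 of scaled FPKM plus 1, over the 6693 rows that reached an FPKM of 1 in 3 or more libraries, and a gene was called at a Benjamini-Hochberg adjusted p under 0.05. This filter kept 109 members and dropped mug96 and mug116. In clr1D, 21 members (19.3%) were called, 13 higher and 8 lower, against 17.6% of all tested rows (9.31% higher and 8.29% lower). In clr2D, 18 (16.5%) were called, 12 higher and 6 lower, against 12.3% (7.31% and 4.99%). The count in clr3D was 30 (27.5%), with 16 higher and 14 lower, against 29.0% (14.9% and 14.1%). In mit1D it was 25 (22.9%), 11 higher and 14 lower, against 27.2% (14.7% and 12.5%). In chp2D 24 (22%) were called, 10 higher and 14 lower, against 22.6% (12% and 10.7%). The members' shares thus lay within 5 percentage points of the table's in every deletion. A fit of only the groups compared gave 10 members (9.17%) in clr1D, 5 (4.59%) in clr2D and 18 (16.5%) in clr3D, against 8.13%, 4.87% and 16.3% of all tested rows in that fit. With FPKM as deposited the splits into higher and lower were 13 and 5 in clr1D and 7 and 18 in chp2D. Of all tested rows 18.1% and 24.3% were called in that setting, against 16.5% and 22.9% of members. With quantile normalization the splits were 11 and 13 in clr1D and 10 and 8 in clr2D. Of all tested rows 19.3% and 14% were called there, against 22% and 16.5% of members. How all tested rows split under these settings is not given here. Whether the members' splits differ from the table's was thus not tested.

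**Figure D2:**
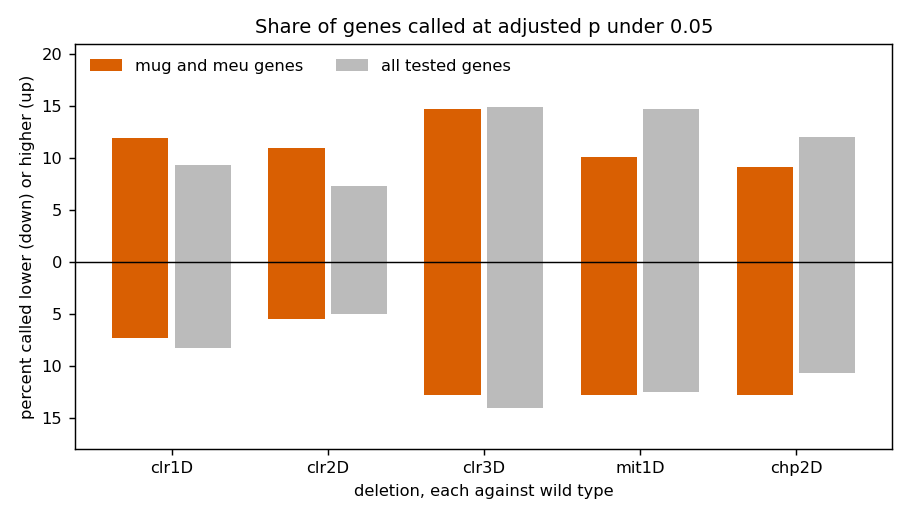
Percent of the 109 tested mug and meu genes (orange) and of all 6693 tested rows (grey) called higher (above 0) or lower (below 0) than wild type in each deletion. The total orange share is 19.3% in clr1D, 16.5% in clr2D, 27.5% in clr3D, 22.9% in mit1D and 22% in chp2D.

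The changes were small. The median log2 fold change over members was 0.03 in clr1D and clr2D, 0.01 in clr3D, -0.0 in mit1D and -0.01 in chp2D, and mug14 alone differed by more than 2-fold, in mit1D and chp2D. Over the 5 comparisons 52 members were called in none and 57 in at least 1 (52.3%, against 56.7% of all tested rows). The comparisons share the wild-type libraries, so a gene called in several of them has not been seen to move independently.

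**Figure D3:**
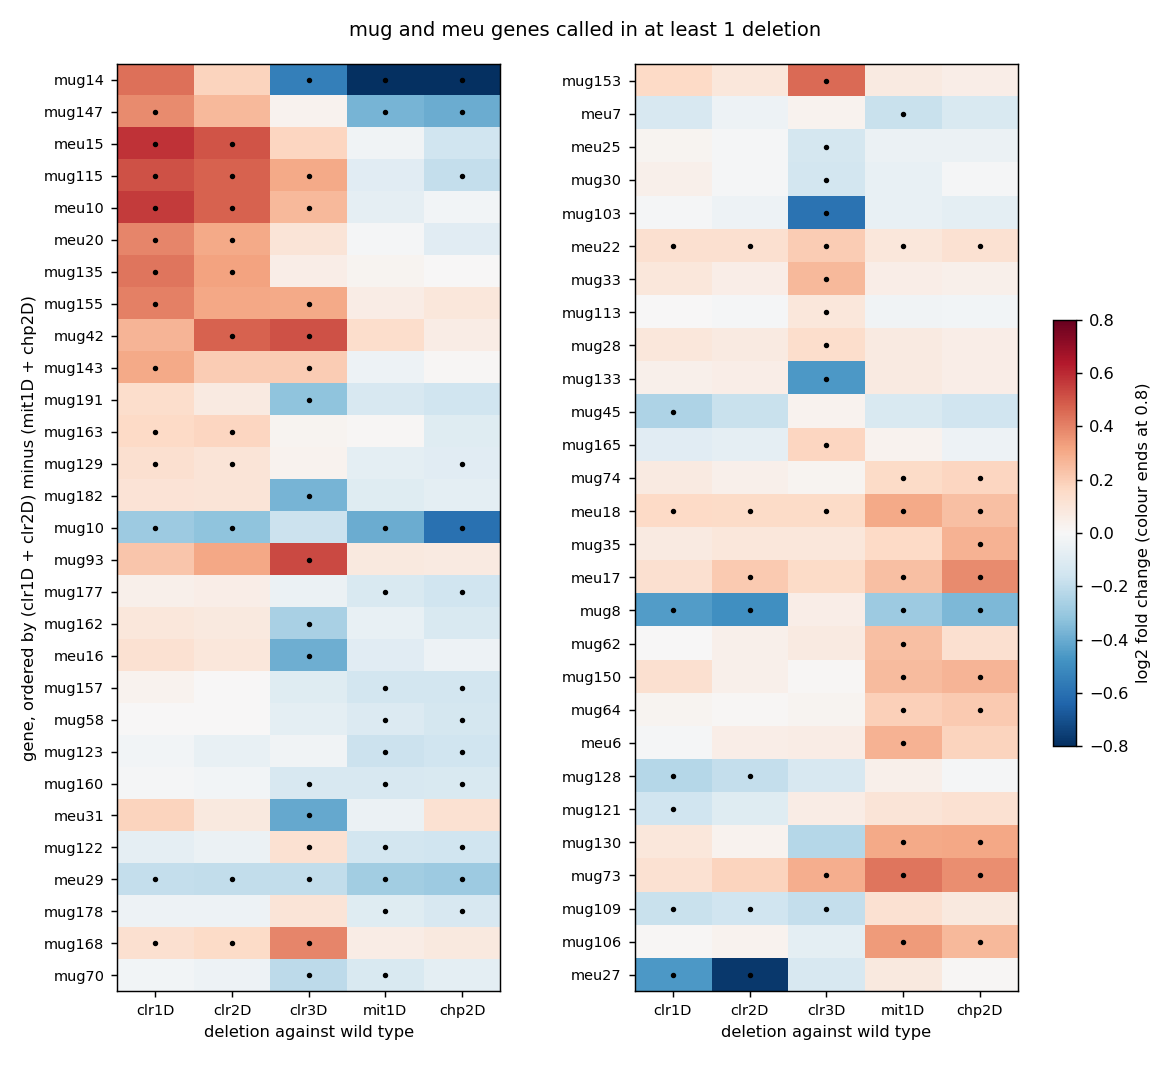
Log2 fold change against wild type (colour, red higher, blue lower, ending at 0.8) of the 57 mug and meu genes called in at least 1 deletion, with a black dot where the gene was called. The genes run from those higher in clr1D and clr2D than in mit1D and chp2D (top left, mug14 and mug147) to the reverse (bottom right, mug106 and meu27).

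The largest fall was that of mug14 (SPBC359.06, chr2:128660-129742 in build ASM294v2), annotated as an adducin that takes part in organising actin. It was at 23.1, 16.3 and 16.8 scaled FPKM in wild type, 7.75, 6.92 and 7.13 in mit1D, and 8.23, 6.71 and 6.11 in chp2D. All 6 libraries of mit1D and chp2D lay below all 3 of wild type. The log2 fold change was -1.24 ± 0.2 (SE) in mit1D (adjusted p = 0.000351). For chp2D it was -1.29 ± 0.2 (adjusted p = 0.000311), and the mean fell to 38.8% and 37.5% of wild type. In clr3D the libraries were at 17.5, 8.45 and 12.5 and overlapped wild type. The call there (log2 fold change -0.55, adjusted p = 0.048) was lost without wild-type replicate 1 (-0.40, adjusted p = 0.189), without clr3D replicate 2 (-0.30, adjusted p = 0.226), and without wild-type or clr3D replicate 3. In clr1D, at 31.9, 23.8 and 21.7, mug14 was not called (log2 fold change 0.44, adjusted p = 0.14), but it was with the replicate number as a block (adjusted p = 0.0161 over all libraries). The gene is 129.2 kb from the end of chromosome 2, among the members nearest to an end.

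Other members fell in mit1D and chp2D by less. mug10 was at 5.16, 4.57 and 4.95 in wild type, 3.85, 3.31 and 3.23 in mit1D, and 2.71, 2.78 and 3.14 in chp2D. All 6 deletion libraries lay below wild type, with log2 fold changes of -0.40 ± 0.08 (adjusted p = 0.00182) and -0.60 ± 0.08 (adjusted p = 8.18e-05). It was also called lower in clr1D (-0.29) and clr2D (-0.32); the clr1D call was lost without wild-type replicate 1 or 3 or clr1D replicate 3, and the clr2D call without wild-type replicate 1 or clr2D replicate 2. mug147 was at 10.4, 9.68 and 8.95 in wild type, 7.27, 7.24 and 7.21 in mit1D, and 6.78, 6.63 and 7.88 in chp2D. Its groups did not overlap, and the log2 fold changes were -0.37 (adjusted p = 0.0144) and -0.40 (adjusted p = 0.0112); the mit1D call was lost without wild-type replicate 1 (adjusted p = 0.0533). In clr1D mug147 went the other way, at 13.9, 14.6 and 10.4, with 1 library at the level of wild type (log2 fold change 0.38, adjusted p = 0.0197). SPNCRNA.1668, which covers 78.3% of mug147 on the other strand, moved by -0.35, -0.33 and 0.38 in mit1D, chp2D and clr1D. Smaller falls in both mit1D and chp2D were those of meu29, mug8, mug58, mug122, mug123, mug157, mug160, mug177 and mug178, with log2 fold changes between -0.10 and -0.36. Of these, mug58 and mug177 overlap each other on opposite strands, over 95.9% of mug58 and 67.1% of mug177. meu7, annotated as an alpha-amylase, fell in mit1D (-0.18). mug8 was at 19.4 to 20.7 in mit1D against 20.5 to 29.9 in wild type, so its groups overlapped.

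Members that rose in clr1D and clr2D were led by meu15, meu10 and mug115. meu10 encodes a GPI-anchored protein needed for the spore wall. It was at 3.72, 2.75 and 3.11 in wild type, 5.69, 5.08 and 4.76 in clr1D, and 5.35, 4.3 and 4.73 in clr2D. Every clr1D and clr2D library lay above wild type, with log2 fold changes of 0.56 ± 0.09 (adjusted p = 0.000567) and 0.47 ± 0.09 (adjusted p = 0.00302). In clr3D it was at 4.23, 4.04 and 3.74, also above wild type (0.26, adjusted p = 0.0464), a call that was lost without wild-type replicate 2 or 3 or any 1 clr3D replicate. In mit1D (2.69 to 3.22) and chp2D (2.9 to 3.26) it was not called. Non-coding rows on the other strand, SPNCRNA.1238 (39.0% of meu10) and SPNCRNA.1237 (21.5%), rose with it in clr1D (0.68 and 0.50) and clr2D (0.60 and 0.39), while cbf12 (25.8%) was called in neither.

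mug115, of no annotated function, gave the smallest adjusted p of any rise. Its libraries were at 28.3, 27 and 27.9 in wild type, 40.3, 40.6 and 38.9 in clr1D, and 39.6, 39.6 and 37.0 in clr2D. The deletions stood clear of wild type, with log2 fold changes of 0.51 ± 0.05 (adjusted p = 1.33e-06) and 0.47 ± 0.05 (adjusted p = 5.1e-06). In clr3D, at 36.7, 34.4 and 32.2, the rise was 0.30 (adjusted p = 0.000237), and in chp2D, at 25.4, 24.2 and 23.0, the gene was lower by a log2 fold change of -0.19 (adjusted p = 0.00864). A row on the other strand, SPAC56F8.13, covers 39.1% of mug115 and moved with it, by 0.53, 0.51, 0.30 and -0.25 in the same 4 deletions. A further row, SPAC56F8.15, covers 18.5% of mug115 and was called in none of the 5.

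meu15 was near the detection floor, at 1.16, 1.03 and 0.725 in wild type, 1.68, 2.14 and 2.0 in clr1D, and 1.74, 1.63 and 1.94 in clr2D. The groups did not overlap; its mean was 200% of wild type in clr1D and 182% in clr2D, while the log2 fold changes, shrunk by the added 1, were 0.58 (adjusted p = 0.00178) and 0.50 (adjusted p = 0.00773). mug135 rose by 0.43 in clr1D and 0.32 in clr2D, from 4.69 ± 0.371 to 6.66 ± 0.33 and 6.1 ± 0.545. SPNCRNA.1109, which covers 39.1% of it on the other strand, rose by 0.49 and 0.40. The non-coding RNA meu20, which lies inside imt2 on the same strand, rose by 0.39 and 0.30, while imt2 moved by 0.09 and 0.05 and was not called. The clr2D call of meu20 was lost without wild-type replicate 2 or 3 or clr2D replicate 1 or 2. mug155 was called in clr1D (0.40) and mug42 in clr2D (0.47); the mug155 call was lost without wild-type replicate 3 or clr1D replicate 1 or 2, and the mug42 call without wild-type replicate 2 or 3 or clr2D replicate 2. mug143, mug163, mug129 and mug168 were called higher in clr1D with log2 fold changes between 0.13 and 0.30.

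The largest fall in clr1D and clr2D was in the row of meu27, which lies wholly inside the checkpoint kinase gene chk1 on the other strand. It was at 13.9, 13.1 and 12.4 in wild type, 9.93, 8.99 and 8.98 in clr1D, and 7.91, 6.93 and 7.1 in clr2D. The 3 groups did not overlap. The log2 fold changes were -0.46 ± 0.06 (adjusted p = 6.42e-05) and -0.77 ± 0.06 (adjusted p = 2.48e-07). chk1 fell by nearly the same, -0.48 in clr1D and -0.78 in clr2D, from a wild-type level of 15.5 to 10.8 and 8.63. Reads of the pair cannot be told apart here, since the sources used here do not say how strands were counted.

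mug8 was at 29.9, 20.5 and 25.6 in wild type, 18.7, 17.3 and 18.2 in clr1D, and 17.5, 16.9 and 18.1 in clr2D. Each clr1D and clr2D library lay below wild type, whose own libraries spread widely, and the log2 fold changes were -0.45 ± 0.1 (adjusted p = 0.00412) and -0.49 ± 0.1 (adjusted p = 0.00269). In clr3D, at 28.4, 23.3 and 26.2, mug8 was not called. mug45 was at 8.0, 7.9 and 9.22 in clr1D against 9.51, 10.8 and 10.2 in wild type (log2 fold change -0.25, adjusted p = 0.0296), a call lost without wild-type replicate 2 or 3 or clr1D replicate 1 or 2. mug128, which lies inside grc3 on the other strand, fell by 0.23 in clr1D and 0.19 in clr2D, and grc3 fell by 0.19 and 0.17. The clr2D calls of mug128 and of mug109, annotated as a Rab GTPase binding protein, were lost when any of several single libraries was left out: for both wild-type replicate 1 and clr2D replicate 2 or 3, and besides these wild-type replicate 3 for mug128 and wild-type replicate 2 for mug109.

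**Figure D4:**
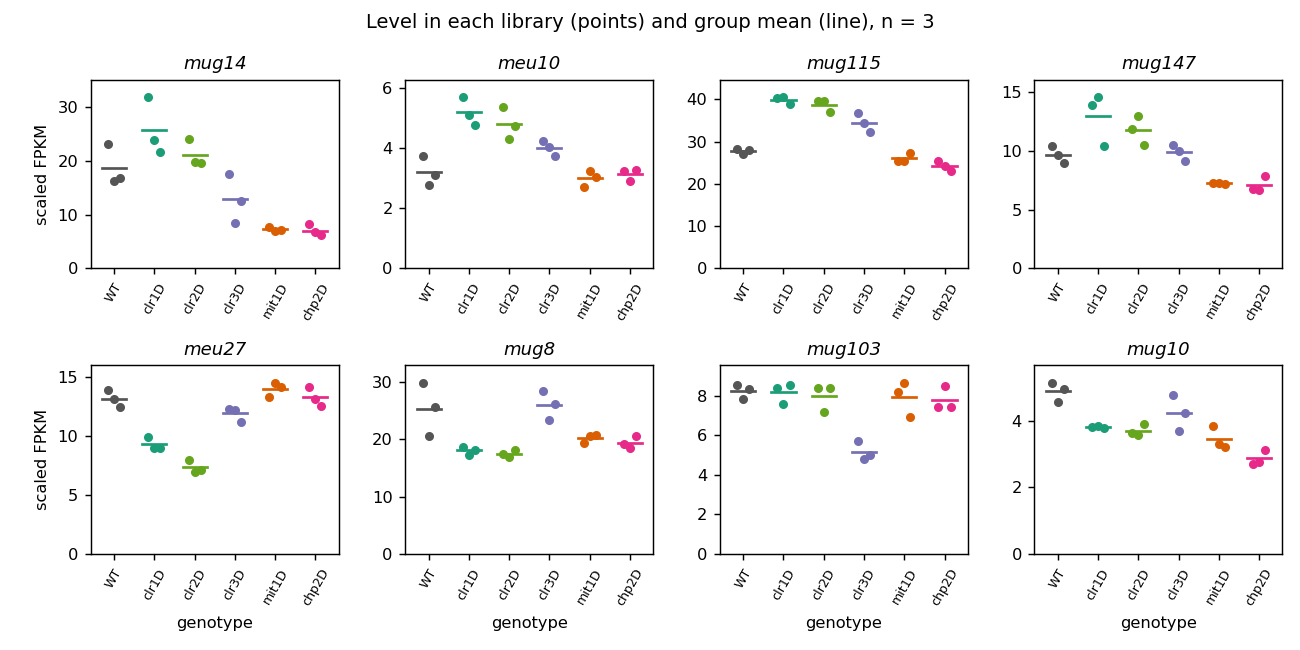
Scaled FPKM of 8 mug and meu genes in every library (points, 3 per genotype) with the group mean (line); each y axis starts at 0. mug14 is lowest in mit1D and chp2D (6.11 to 8.23), meu10 and mug115 are highest in clr1D and clr2D, meu27 is lowest in clr2D (6.93 to 7.91), and mug103 is lowest in clr3D (4.8 to 5.69).

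Besides mug14, the largest falls called in clr3D were those of mug103, mug133 and meu31. mug103 was at 8.55, 7.84 and 8.33 in wild type and 5.69, 4.8 and 4.99 in clr3D. The groups did not overlap, and the log2 fold change was -0.59 ± 0.08 (adjusted p = 0.000106). mug133 was at 2.02, 1.95 and 1.69 in wild type and 1.16, 1.14 and 0.978 in clr3D, a log2 fold change of -0.46 ± 0.09 (adjusted p = 0.00134) and 57.9% of the wild-type mean. meu31 went from 5.14, 4.0 and 4.33 to 3.57, 2.7 and 3.1 (-0.41, adjusted p = 0.00458), and the non-coding row SPNCRNA.710, which covers 94.7% of it on the other strand, moved by -0.41 as well. None of these 3 members was called in any other deletion.

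Further falls in clr3D were those of meu16 (-0.39), a non-coding RNA opposite mde6, which fell by 0.37 too, and mug182 (-0.37), annotated as an NADHX epimerase, which repairs a damaged form of NADH. SPNCRNA.926 covers all of mug182 on the other strand, at 6.07 in wild type against 11.0. mug191 (-0.32), an alpha-1,6-mannanase of the kind that acts on the cell wall, was at 11.0, 11.8 and 9.99 against 12.8, 14.5 and 14.4, without overlap. mug162 fell by 0.26, from 14.1 ± 0.779 to 11.6 ± 0.321 (adjusted p = 0.000269). The gene sst6, at 11.4 in wild type, covers 56.4% of mug162 on the other strand.

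The rises in clr3D were led by mug93, mug42, mug153 and mug168. mug168 was at 40.2, 40.3 and 38.8 in wild type and 53.7, 53.0 and 50.1 in clr3D, with no overlap and a log2 fold change of 0.39 ± 0.04 (adjusted p = 6.18e-06). mug153 went from 4.73, 6.09 and 5.16 to 6.78, 8.4 and 7.65, also without overlap (0.45, adjusted p = 0.000363). It shares 2.6% of its interval with tps3 on the same strand, which rose by 0.44. mug42 (0.51, adjusted p = 0.00553) stood clear of wild type, and mug93 (0.53), annotated as a TPR protein, overlapped it and moved with SPNCRNA.1435 on the other strand (0.49). The clr3D rises of mug73 (0.29) and mug155 (0.30) rested on single libraries, being lost for mug73 without wild-type replicate 1 or 3 or clr3D replicate 1 or 2, and for mug155 without wild-type replicate 2 or 3 or any clr3D replicate.

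The largest rise called in mit1D was that of mug73, annotated as a transporter, and the largest in chp2D was that of meu17. mug73 was at 7.6, 8.15 and 7.25 in wild type, 11.8, 10.3 and 9.98 in mit1D, and 10.6, 10 and 9.88 in chp2D. All 6 deletion libraries exceeded wild type, with log2 fold changes of 0.43 ± 0.09 (adjusted p = 0.00357) and 0.37 ± 0.09 (adjusted p = 0.0103). The 2 most abundant members rose as well. mug106 went from 230 ± 11.6 to 291 ± 5.14 in mit1D and 276 ± 20.2 in chp2D (0.34 and 0.26), and mug64 from 277 ± 8.73 to 315 ± 4.99 and 320 ± 3.23 (0.19 and 0.21). meu17, a glucan 1,4-alpha-glucosidase, was at 10.3, 10.2 and 9.39 in wild type, 12.4, 12 and 11.3 in mit1D, and 12.4, 14.1 and 13.4 in chp2D. It did not overlap wild type in either (0.24, adjusted p = 0.0106, and 0.38, adjusted p = 0.000528). SPNCRNA.1494 covers 95.8% of meu17 on the other strand, at 7.98 in wild type against 9.96. SPNCRNA.715 covers 77.1% of mug64 on the other strand, at 191 against 277. Reads of each pair cannot be told apart here.

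meu6 rose in mit1D (0.28, adjusted p = 0.00924), and so did clr4, the histone H3 methyltransferase gene that covers all of meu6 on the other strand (0.22). The meu6 call was lost without wild-type replicate 3 or mit1D replicate 2. mug130, inside SPAC8F11.04, was called in both deletions (0.30 and 0.31), and these calls were lost without wild-type replicate 2, mit1D replicate 1 or 3, or chp2D replicate 1 or 2. mug150 rose by 0.25 and 0.27. Of the 2 genes that overlap it, the stress kinase gene srk1 (19.7% of mug150) rose by 0.34 and 0.38 and kap113 (34.8%) was not called. mug35 rose in chp2D (0.28, adjusted p = 0.00384).

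In 3 cases a member was called in all 5 deletions (2.75%, against 1.73% of all tested rows). meu29 was lower, from 36.3 ± 0.363 in wild type to 31.7, 31.5, 31.4, 29.7 and 29.5 in clr1D, clr2D, clr3D, mit1D and chp2D, with log2 fold changes between -0.19 and -0.29. meu18 was higher, from 32.0 ± 0.328 to 35.9, 35.5, 35.5, 39.6 and 38.0, with log2 fold changes from 0.15 to 0.30, and SPNCRNA.1417, opposite 92.9% of it, moved by 0.12 to 0.27. meu22, an amino-acid permease, was higher by 0.09 to 0.20, from 20.9 ± 0.303 to between 22.4 and 24.2, and mrps26, opposite 73.8% of it, moved by 0.09 to 0.19. For each, the wild-type libraries were apart from all 15 others. Every comparison uses the same 3 wild-type libraries, so these are not independent results. With FPKM as deposited meu22 was not called in mit1D (adjusted p = 0.199) or chp2D (adjusted p = 0.117). Its mit1D call was also lost without wild-type replicate 2 or mit1D replicate 2, and the meu18 call in clr2D without wild-type replicate 1 or clr2D replicate 3.

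Several further members have well known meiotic roles. meu13, which encodes a partner of the meiotic recombinase, was at 4.16 ± 0.489 in wild type and between 3.0 and 3.84 in the deletions, and was not called; in clr3D its log2 fold change was -0.38 (adjusted p = 0.0735) and it was called with the replicate block (adjusted p = 0.0314) and without clr3D replicate 3 (-0.51). mug20, of the linear elements of meiotic chromosomes, was at 3.77 ± 0.281 in wild type and 3.68 to 4.17 elsewhere. meu14, which acts at the leading edge of the forespore membrane, was at 13.8 ± 0.0838 in wild type and 13.0 to 13.9 elsewhere. The kinase gene mug27, which acts in forespore membrane formation, was at 7.13, 4.92 and 4.37 in wild type and overlapped every deletion but chp2D, where it was at 3.76, 3.64 and 3.92 (log2 fold change -0.42, adjusted p = 0.0502). SPNCRNA.583 covers 96.2% of mug27 on the other strand, at 9.71 in wild type against 5.47. With the replicate block mug27 was called in chp2D (adjusted p = 0.0346), and with the block over the wild-type and clr libraries it was called higher in clr1D (0.32, adjusted p = 0.0279) and clr2D (0.35, adjusted p = 0.0232). Without wild-type replicate 1 it was called in clr1D (0.50) and clr2D (0.53), and without wild-type replicate 3 in mit1D (-0.49) and chp2D (-0.54).

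The RNA-binding genes were mug24, at 1.18 to 1.61 in wild type and called in no deletion, and mug28, called in clr3D and in no other deletion against wild type (0.14, adjusted p = 0.0148), a call lost without clr3D replicate 2. mug28 lies inside mrp17 on the other strand, which moved by 0.13 in clr3D. The acetate transporter gene mug86, mug161, of a splicing factor family, and mug174, which encodes coilin, were called in no comparison with wild type. With the block over the wild-type and clr libraries, mug28 was called in clr1D (0.09), mug161 in clr2D (-0.07) and mug174 in clr3D (-0.10). mug174 was also called in clr3D without wild-type replicate 2 (-0.15), mug86 in clr1D and clr2D with quantile normalization, and mug161 in mit1D and chp2D with FPKM as deposited.

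Some of the calls above were also lost under other settings. In the fit of only the groups compared, these were meu15, meu18, mug155, mug45 and mug8 in clr1D, and meu10, meu15, meu18, meu22, mug10, mug109, mug135, mug42 and mug8 in clr2D. The same fit lost meu10, mug14, mug155, mug28 and mug73 in clr3D and meu22 in mit1D. FPKM as deposited lost mug10 in clr1D, mug109 and mug128 in clr2D, meu10, mug14 and mug155 in clr3D, and mug130 in mit1D and chp2D. Quantile normalization lost meu15 in clr2D and mug155 in clr1D and clr3D, voom on recovered reads lost mug130 in chp2D, and testing all rows without a filter lost mug14 in clr3D.

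Direct comparisons between deletions asked whether the subunits differ from each other. Between clr1D and clr2D 1 member was called, against 0.478% of all tested rows. This was meu27, at 9.3 ± 0.547 in clr1D and 7.31 ± 0.523 in clr2D (log2 difference 0.31, adjusted p = 0.0242), and the call was lost without clr1D replicate 1 or 3 or clr2D replicate 2 or 3, in the fit of those groups alone and with FPKM as deposited. Between mit1D and chp2D limma called 0 members, against 0.164% of all tested rows. Before adjustment 4 of 109 members (3.67%) had p under 0.05, against 334 of all tested rows (4.99%). Voom on recovered reads also called 0 members, against 0.105% of all tested rows.

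clr3D was also set against the mean of clr1D and clr2D, in which 49 members were called, 18 higher and 31 lower (45.0%, against 41.2% of all tested rows, 20.8% higher and 20.4% lower). The split was 9 higher and 33 lower with FPKM as deposited (38.5%, against 37.7% of all tested rows, whose split is not given here). The largest differences were those of mug14 (12.8 against 23.5, log2 difference -0.86 ± 0.17, adjusted p = 0.00104), mug103 (5.16 against 8.08, -0.56) and meu31 (3.12 against 4.99, -0.54) on the lower side. On the higher side were mug8 (26.0 against 17.8, 0.52 ± 0.08, adjusted p = 0.00018), meu27 (11.9 against 8.31, 0.48) and mug153 (7.61 against 5.88, 0.32). The recombination partner meu13 was not called (adjusted p = 0.22), and the RNA-binding gene mug24 was (-0.27, adjusted p = 0.0405).

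The mean of mit1D and chp2D differed from the mean of clr1D and clr2D in 52 members, 21 higher and 31 lower (47.7%, against 56.8% of all tested rows, 28.1% higher and 28.6% lower). With FPKM as deposited 12 were higher and 47 lower (54.1%, against 60.3% of all tested rows, whose split is not given here). Leaving out the scaling shifts all rows of a library. The scaling factors were 0.971 to 0.986 in mit1D and chp2D and 0.999 to 1.067 in clr1D and clr2D. Library series and listed arg3 and his3 alleles differ along with the deletions here. mug14 was at 7.14 against 23.5 (log2 difference -1.58 ± 0.14, adjusted p = 2.28e-07). mug27, called in no deletion against wild type, was at 3.88 against 7.1 (-0.73 ± 0.1, adjusted p = 2.38e-05). mug147 was at 7.17 against 12.4 (-0.70), and mug115 at 25.1 against 39.3 (-0.63). On the other side meu27 was at 13.6 against 8.31 (0.66), mug106 at 284 against 233 (0.28) and mug109 at 16.6 against 13.6 (0.27).

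Many members share their interval with another row, which bears on the values above. Of the 111, 83 overlapped another row and 28 did not, and in 49 another row covered at least 50% of the interval, on the opposite strand in 47 and the same strand in 2. Wild-type levels of these 49 were within 1.5-fold of the covering row in 33, as for mug112 and SPCC338.03c (6.9 and 6.8). They were far apart in others, as for mug130 (12.8, against 105 for SPAC8F11.04), mug116 (0.315, against 19.6 for mtf2) and mug106 (230, against 4.19 for SPNCRNA.1056). The median difference in log2 fold change between member and covering row was 0.03 in absolute size, and the largest was 0.64.

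Where a called member overlapped any row, an overlapping row was called in the same direction for 9 of 16 members in clr1D, 7 of 12 in clr2D, 13 of 21 in clr3D, 13 of 19 in mit1D and 11 of 18 in chp2D. In 0 of these was an overlapping row called the opposite way. mug143 and mug123 were exceptions at high coverage: mug143 rose by 0.30 in clr1D, while dbs2, which covers all of it, moved by 0.05, and mug123 fell by 0.17 in mit1D, while taf6 moved by -0.01. Among the 27 tested members that overlap no row, 2 were higher and 3 lower in clr1D, 3 and 3 in clr2D, 4 and 5 in clr3D, and 1 and 5 in both mit1D and chp2D. Among the 48 tested members with at least 50% coverage, the counts of higher and lower calls were 5 and 3 in clr1D, 4 and 2 in clr2D, 6 and 6 in clr3D, 9 and 4 in mit1D, and 7 and 4 in chp2D. Among the other 61 they were 8 and 5, 8 and 4, 10 and 8, 2 and 10, and 3 and 10. These counts were not tested against each other, and the shares of all tested rows are those given with the first counts.

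**Figure D5:**
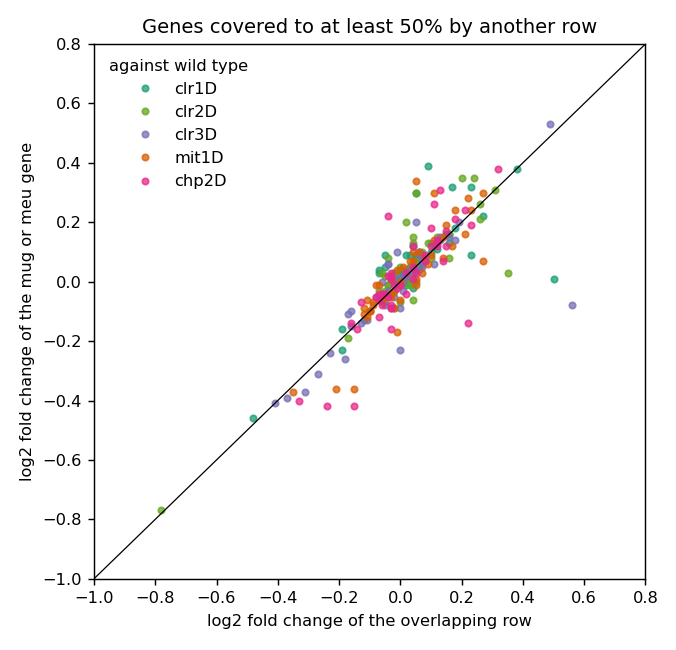
Log2 fold change against wild type of each mug or meu gene (y axis) and of a row that covers at least 50% of its interval (x axis), 1 point per pair and deletion, coloured by deletion; the line marks equal values. Most points lie on the line, with a median absolute difference of 0.03, and the lowest point is meu27 with chk1 in clr2D (-0.77 and -0.78).

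Members with GTAAACA before the start were called in clr1D in 4 of 46 cases (8.7%), and those without it in 16 of 59 (27.1%). Over all coding genes the shares were 14.7% with and 16.6% without the core. In clr2D the members' shares were 10.9% with and 20.3% without it, against 10.3% and 11.4% over all coding genes. In clr3D they were 30.4% and 25.4%, against 31.4% and 29.1%. In mit1D they were 26.1% and 22%, against 23.6% and 27.4%, and in chp2D 19.6% and 25.4%, against 20.7% and 22.2%. The median wild-type level was 14 with the core and 13.5 without it, and the median log2 fold changes of both sets lay between -0.02 and 0.04. No test was made of these shares.

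Other genes of the meiotic programme were read in the same fit. mei2, which encodes the RNA-binding protein that starts meiosis, was at 12.5 ± 3.23 in wild type and 7.25 ± 0.577 in clr1D, 2.47 ± 0.471 in mit1D and 2.67 ± 0.387 in chp2D, and was called lower in these (-0.69, -1.95 and -1.86). It belongs to a list of 16 tested regulators, of which 0 were higher and 3 lower in clr1D, 0 and 1 in clr2D, 1 and 2 in clr3D, 1 and 3 in mit1D, and 0 and 2 in chp2D. Of 8 tested transcripts that Mmi1 marks, 1 was higher and 0 lower in clr1D, 1 and 1 in clr2D, 0 and 1 in clr3D, 0 and 4 in mit1D, and 0 and 5 in chp2D. Of all tested rows 12.5% were lower in mit1D and 10.7% in chp2D. Those in mit1D were ssm4 (-0.37), spo5 (-0.45), crs1 (-0.26) and mcp7 (-0.30), and rec8, the meiotic cohesin gene, was the further one in chp2D (-0.31). The recombination and chromosome list had 6 higher and 1 lower of 21 in mit1D, with dmc1 at 0.45, and 3 higher and 3 lower in chp2D. In clr1D and clr3D it had 1 higher and 2 lower, and in clr2D 1 and 0. Of 18 sporulation genes 1 was higher and 1 lower in clr1D, 1 and 2 in clr2D, 4 and 1 in clr3D, 5 and 1 in mit1D, and 2 and 1 in chp2D. Of 15 core stress genes 4 were higher and 0 lower in clr1D, 2 and 0 in clr2D, 8 and 0 in clr3D, with hsp16 at 1.07, and 4 and 4 in both mit1D and chp2D. Of 10 nitrogen starvation genes 0 were higher and 4 lower in clr1D, 0 and 2 in clr2D, 5 and 0 in clr3D, 1 and 3 in mit1D, and 1 and 4 in chp2D. Some genes are counted in more than 1 list, so the counts of the lists are not separate results. Both ste11 and mei2 are in the regulator and the nitrogen starvation list, and both were lower in clr1D. The Mmi1 list shares rec8, mek1 and mcp7 with the recombination list, spo5 and spo6 with the sporulation list, and mei4 with the regulators. In clr3D 14.9% of all tested rows were higher and 14.1% lower. The summed level of 8 genes of cells in meiosis or sporulation ranged over libraries from 119 to 134 in wild type. Its range was 111 to 118 in clr1D and 109 to 119 in clr2D, while clr3D had 123 to 134, mit1D 136 to 138 and chp2D 132 to 139. Single genes of this sum went both ways in mit1D and chp2D. From wild type, hop1 went from 36.9 to 45.3 and 45.5 and dmc1 from 23.5 to 32.4 and 33.0. By contrast spo5 went from 3.31 to 2.15 and 1.91, and rec8 from 5.77 to 4.82 and 4.47. Of the 8 markers, 1 was higher and 1 lower in each of clr1D, clr2D and clr3D, 2 and 1 in mit1D, and 2 and 2 in chp2D. These markers include meu10 and meu14, and their part in the members' values was not tested. The other markers, such as rec8 and spo5, are also counted in the lists above.

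The 100 kb limit left out 5 mug or meu rows, all on chromosome 3. meu3, at 42.4 kb from the end, was at 2.05 in wild type, 6.14 in clr1D, 6.01 in clr2D and 3.2 in clr3D, with log2 fold changes of 1.24, 1.22 and 0.48. meu19, at 33.5 kb, rose by 0.77 in clr1D and 0.70 in clr2D. Both rises in clr1D exceeded that of any member (0.58 for meu15). The left-out mug170 rose in mit1D (0.32) and chp2D (0.24), and mug9 was called in no deletion. The row just outside the limit, meu23 at 99.1 kb, was lower in mit1D (-0.22) and uncalled elsewhere, and the member just inside it, mug135 at 112.8 kb, is the one described above.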

How the data were processed

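RNA of 18 cultures was sequenced (ribosomal RNA depleted, stranded total RNA kit, per the labels' protocols). Reads were aligned with GSNAP to ASM294v2, per the submitters' processing notes, and the authors deposited 1 table of FPKM per transcript with transcript coordinates and lengths. How reads of overlapping genes and strands were counted is not given in the sources used here. FPKM times transcript length gave whole reads for 100% of values to within 0.1 read, from which depth was read. The table's 3 columns with no matching sample were not used.

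Names and sequences came from the RefSeq annotation and genome of ASM294v3 (6844 of 7018 rows matched, 4410 with a symbol), and coordinates of rows are those of the table. Deposited FPKM were divided by a median-ratio factor per library (6484 rows) and log2(value + 1) was fitted with limma 3.58.1 in R 4.3.3, in 1 fit over 18 libraries, with Benjamini-Hochberg adjustment over 6693 rows within each of 9 comparisons and tests two-sided. The fit was also run on simulated counts, drawn independently for each library. These held no effect shared between libraries, so that run does not show how well the calls hold here. Tables were made with Python 3.11.15, pandas 2.3.3 and NumPy 2.4.6, and plots with matplotlib 3.10.9. Fold changes are on the log2(FPKM + 1) scale, which understates low genes. The labels call replicates biological and name no separate strain isolates.

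Same-numbered libraries of wild type, clr1D, clr2D and clr3D deviated together (correlations 0.25 to 0.704), while those involving mit1D or chp2D did not (-0.134 to 0.125). In wild type and the clr strains, libraries of the same number also share the first part of their library name. The labels name no batch, and the main fit used no pairing. Its p values for the clr strains thus leave out any effect shared by same-numbered libraries. The numbers were taken to pair libraries only in the fits with a replicate block, whose counts are given in the last section. Named are, per deletion, the 6 highest and 6 lowest called members without overlap of groups, 3 and 3 between deletions, members with textbook roles (meu5, mug79 and meu8 now carry other standard names and are no members), the 3 highest and lowest in wild type, those called in all 5 deletions and those nearest the 100 kb limit; others were chosen after their values were seen. Members and lists were chosen with earlier results of these data known. Alternatives were the pseudocount, the filter, the scaling, a replicate block, a fit of the compared groups only, voom on recovered reads, leaving out each replicate, and adding genes that carry a mug or meu name as a synonym.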

Additional observations from a re-analysis of the deposited data

How the results depend on the processing

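A fit of only the groups compared, with fewer libraries, called 10 members in clr1D, 5 in clr2D, 18 in clr3D and 0 between clr1D and clr2D, against 8.13%, 4.87%, 16.3% and 0.418% of all tested rows in that fit. FPKM as deposited also gave 0 between clr1D and clr2D, against 0.448% of all tested rows. Genes with a mug or meu synonym add 90 rows, and with them 198 rows were tested. Calls then numbered 29 in clr1D (14.6%, against 17.6% of all tested rows) and 24 in clr2D (12.1%, against 12.3%). They numbered 62 in clr3D (31.3%, against 29.0%), 48 in mit1D (24.2%, against 27.2%) and 39 in chp2D (19.7%, against 22.6%). For clr3D against clr1D and clr2D there were 86 (43.4%, against 41.2%). For mit1D and chp2D against clr1D and clr2D there were 99 (50%, against 56.8%). Leaving out 1 replicate gave 15 to 21 calls in clr1D, 11 to 15 in clr2D (11 without clr2D replicate 2), 23 to 26 in clr3D, 19 to 23 in mit1D, 19 to 22 in chp2D, 0 to 1 between clr1D and clr2D, 38 to 48 for clr3D against clr1D and clr2D, 0 to 0 between mit1D and chp2D, and 47 to 53 for the last comparison. In the same fits the shares of all tested rows ranged for clr1D from 13.0% to 15.1%, for clr2D from 8.37% to 10.4%, for clr3D from 23.5% to 25.7%, for mit1D from 19.3% to 25.1%, and for chp2D from 15.9% to 20.8%. Between clr1D and clr2D they ranged from 0.433% to 0.478%, and between mit1D and chp2D from 0.12% to 0.179%. For clr3D against clr1D and clr2D they were 33.6% to 40.6%, and for the last comparison 52.9% to 54.8%. With the replicate block over 18 libraries the counts were 24, 20, 36, 28 and 28 in clr1D, clr2D, clr3D, mit1D and chp2D (22.2%, 16.9%, 34.2%, 32.6% and 27.7% of all tested rows). Over the 12 wild-type and clr libraries, a fit chosen after seeing the data, they were 27, 26 and 43 in clr1D, clr2D and clr3D (27.3%, 21% and 38% of all tested rows). Beyond the calls given above for mug14, meu13, mug27, mug28, mug161 and mug174, the block changed no named call. Of the named values, those that lost their call numbered 11 and those that gained one 3 without the scaling of FPKM, 3 and 4 under quantile normalization, 1 and 1 with voom, 21 and 0 with only the groups compared, and 63 and 6 over all single replicates left out. No called value reversed. The depth of 26.2 to 101.8 M reads limits the lowest members most, and the added 1 shrinks their fold changes.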
